A study of Trichoplusia ni and Spodoptera exigua with 20 samples.

Results

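Gene expression in the fat body of the beet armyworm, *S*. *exigua*, under dietary sulforaphane (SFN) was described from 6 RNA-seq libraries. Of these, 3 came from larvae consuming SFN and 3 from control larvae. Each library pooled the fat bodies of 3 to 5 wild-type larvae collected at about Day 10. SFN (70 mM) was applied to the surface of the food in ethanol (EtOH), and controls received food treated with EtOH alone, in each case after the solvent had dried off. Both groups had an antibiotic-containing artificial diet and were housed singly, at 50% humidity and 25°C. The 3 TSA libraries of the same species (trichostatin A, 330 µM, given in the same way) entered the statistical model and are mentioned only beside SFN. These are 6 of the 20 libraries and 1 of the 2 species in the series. All genes with a mean CPM (counts scaled to library size) over 10 across the 6 libraries were described, which were 5690 of the 18477 genes in the count table and of the 16532 with at least 1 count in the 6 libraries. The tested gene nearest to this limit had a mean of 10.0008 CPM and the nearest one below it 9.99924 CPM. The limit was passed through the control libraries alone by 516 genes, through the SFN libraries alone by 1050, and through each group by itself by 4124.

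The fat body of a caterpillar is its main organ of intermediary metabolism. It stores lipid and glycogen and secretes most proteins of the hemolymph, including the hexamerin storage proteins that are taken up again for metamorphosis. SFN is an isothiocyanate released from glucoraphanin when cruciferous tissue is chewed, and it inhibits histone deacetylases (HDACs) in mammals. HDACs remove acetyl groups from histone tails, so that their inhibition can raise or lower the transcription of many genes. The genes of the *S*. *exigua* count table carry locus tags of the TB_SE_WUR_2020 genome only, and the table of names at hand is of another species. For this reason no gene, pathway or marker of fat body or other tissues could be named or checked, and the genes are described in groups by their level and change. In pooled tissue, fewer cells of a type and less RNA per cell cannot be told apart. The study reports smaller *S*. *exigua* larvae under SFN in this experiment, and slower development of the species on SFN. Since all pools were collected at about Day 10, SFN itself and larval size or stage cannot be told apart here.

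Gene counts summed to between 29910259 and 35157218 in the controls, and to 24984839, 6352561 and 27502512 in SFN replicates 1, 2 and 3. A level of 10 CPM was therefore about 63.5 counts in SFN replicate 2 and 249.8 or more in every other library of these 6. SFN replicate 2 had counts for 13239 genes, against 13273 to 13927 in the others, but the most when all were thinned to its depth, where the others had 11894 to 12648. In all, 320 of the tested genes had under 10 counts in it, against 215 and 274 in SFN replicates 1 and 3 and 29 to 82 in the controls. When all libraries were thinned to the depth of SFN replicate 2, 1186 genes differed between the groups, in place of the 1203 described below.

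The libraries did not separate cleanly into their groups. The median absolute difference in log2 CPM over the tested genes was 0.40 between control replicates 2 and 3, and 0.79 and 0.78 between control replicate 1 and these. Control replicate 1 lay closer to SFN replicate 1 (0.54) and SFN replicate 3 (0.52) than to the other controls, and differed from SFN replicate 2 by 0.85. Control replicates 2 and 3 differed from the SFN libraries by 1.01 to 1.33. SFN replicates 1 and 3 were close to each other (0.33), and SFN replicate 2 differed from them by 0.66 and 0.73. The median standard deviation of a gene (log2 CPM) was 0.58 among the 3 controls and 0.28 without replicate 1, and 0.49 among the 3 SFN libraries and 0.23 without replicate 2. Each group thus held 1 library that stood apart, and the number of called genes is given below with and without these.

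**Figure D1:**
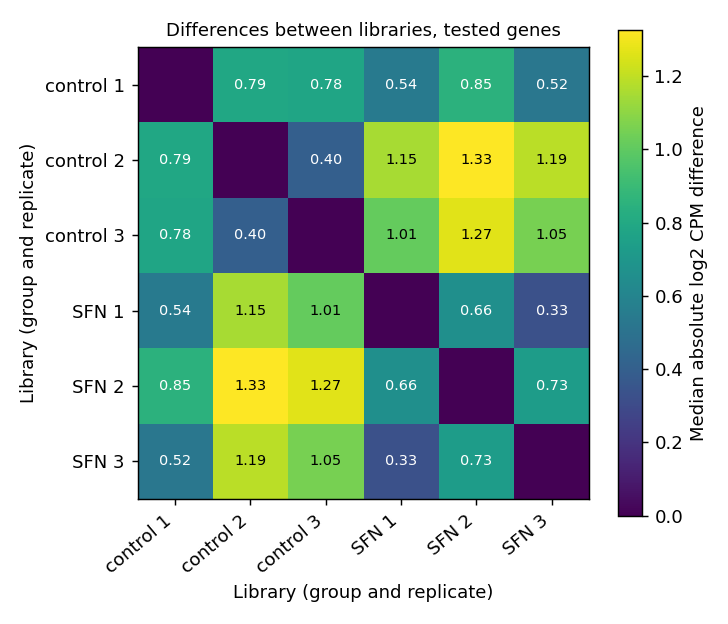
Each cell gives the median absolute difference in log2 CPM between a pair of libraries over the 5690 tested genes, with the libraries named by group and replicate on each axis. Control replicate 1 sits nearer to SFN replicates 1 and 3 (0.54 and 0.52) than to control replicates 2 and 3 (0.79 and 0.78).

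Expression differed between SFN and control in 1203 genes (21.1% of those tested), of which 687 fell (12.1%) and 516 rose (9.07%), at a Benjamini-Hochberg adjusted p under 0.05 in the quasi-likelihood (QL) test of edgeR. These genes are referred to as called. The falls were deeper than the rises. The median log2 fold change was -4.11 over the genes that fell and 1.87 over those that rose, while it was 0.06 over all tested genes, with the central 90% between -5.98 and 2.55. Of the genes that fell, 528 fell by 2 log2 units or more and 351 by 4 or more, against 230 and 53 of the genes that rose. An unadjusted p under 0.05 was found for 2240 genes (39.4%), and the lowest adjusted p was 0.0109. The likelihood ratio test of edgeR gave 1648 genes, of which 1179 were among the 1203, and the Wald test of DESeq2 gave 2042, of which 1187 were. All 3 SFN libraries lay above all 3 controls in 1205 genes (21.2%) and below them in 1065 (18.7%), which together are 39.9% of the tested genes. Every gene that rose was among the former, and 618 of the 687 that fell were among the latter.

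The number of called genes rested on single libraries. It was 2333 without control replicate 1 (1180 rose and 1153 fell), 61 without control replicate 2, 17 without control replicate 3 and 222 without SFN replicate 2. Without SFN replicate 1 or SFN replicate 3 it was 0 by the QL test of edgeR, where 1885 and 2014 genes kept an unadjusted p under 0.05. The lowest adjusted p by the edgeR QL test was 0.05444 and 0.06255 in these fits. All 1203 genes kept the sign of their change without each library in turn, but these fits share libraries and are not independent. The number called was 810 to 843 without any 1 of the TSA libraries and 449 in a model of the 6 libraries alone. With the replicate number as a block, 190 genes were called (3.34%; 44 rose and 146 fell), of which 181 were also called without the block. An unadjusted p under 0.05 was found with the block for 2013 genes (35.4%). Without control replicate 1 and SFN replicate 2, the pair of libraries that stood apart, 2475 genes were called. The more frequent direction of change also differed between settings. Without control replicate 1, 49.4% of the called genes fell, in place of 57.1%. Scaling by library size alone moved the median log2 fold change of all genes from 0.06 to 0.68, and 28.9% of the genes called then had fallen.

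**Figure D2:**
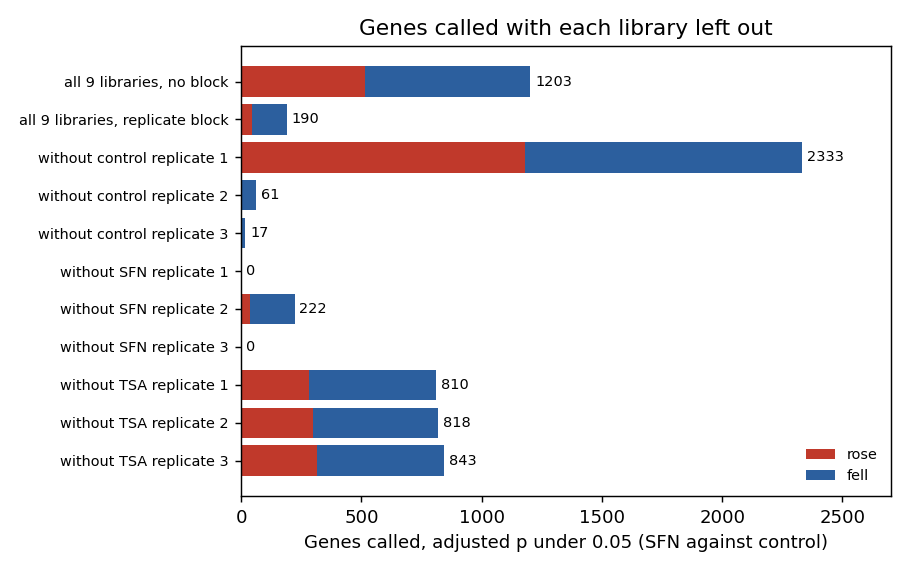
Bars give the number of genes called between SFN and control (adjusted p under 0.05), split into genes that rose and genes that fell, for the model of all 9 *S*. *exigua* libraries, the model with the replicate block and the model without each library. The count was 1203 with all libraries, 2333 without control replicate 1 and 0 without SFN replicate 1 or SFN replicate 3.

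**Figure D3:**
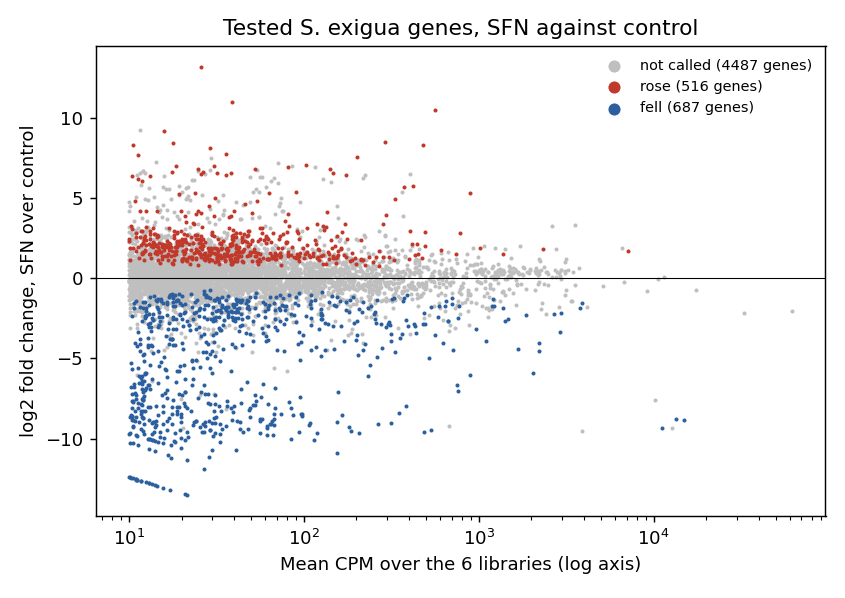
Each point is a tested gene, with its mean CPM over the 6 libraries on a log axis and its log2 fold change (SFN over control) on the other. The 687 genes that fell form a sparse cloud that reaches below -10 at low levels, whereas most of the 516 genes that rose lie between 1 and 4.

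The 351 genes that fell by 4 log2 units or more had a median level under 1 CPM in each SFN library, although some, such as HF086_012939 described below, remained well above it. The median was 24.2, 45.0 and 83.3 CPM in control replicates 1, 2 and 3, and 0.188, 0.535 and 0.101 CPM in SFN replicates 1, 2 and 3. Together they held 4.19%, 17.6% and 17.4% of all counts in the controls and 0.205% to 0.230% in the SFN libraries. Of these genes, 71, 67 and 106 had no count at all in SFN replicates 1, 2 and 3, while 1 had none in a control. The 351 genes were chosen by this fall, so the values describe them and do not test it. Their controls shared an order: the level was lowest in replicate 1 and highest in replicate 3 in 280 of the 351 (79.8%). This order was found in 19.3% of all tested genes, which include the rises. Choosing falls can favour a low control replicate 1, the control nearest to the SFN libraries, so these shares are not a test. Of the 351, 318 stayed at -4 or below without each library in turn. All 351 were called without control replicate 1, 137 without SFN replicate 2, 49 without control replicate 2, 14 without control replicate 3, 112 with the replicate block, and none by this edgeR test without SFN replicate 1 or 3.

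A set of 21 genes had 0 counts in every SFN library. They were present in every control, at 15.2 to 32.8 CPM in replicate 1 (median 17.5), 18.0 to 44.3 CPM in replicate 2 (median 27.2) and 43.0 to 93.9 CPM in replicate 3 (median 53.1). Control replicate 3 was above replicate 2 and replicate 2 above replicate 1 in all 21, and the ratio of replicate 3 to replicate 1 stayed between 2.43 and 3.60 (median 2.80). The 21 genes were chosen for 0 counts under SFN and could pass the filter only through their controls. Their level in the controls and the bound that follows thus partly reflect this choice. The range of their ratios was not compared with that of other genes. Set against a floor of 3 counts over the 3 SFN libraries together, the level pooled over the group was at least 582-fold to at least 1249-fold lower under SFN. This bound covers counting error only. In the TSA libraries they were also near 0, with a summed level of 8.69 CPM in replicate 1, 0 in replicate 2 and 0.237 CPM in replicate 3, against 412 to 1177 CPM in the controls. All 21 were called with all libraries, 8 without SFN replicate 2, 3 with the replicate block, and none without any 1 of control replicate 2, control replicate 3, SFN replicate 1 or SFN replicate 3.

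HF086_012433 had the largest fall of the genes in which all SFN libraries lay below all controls, and is 1 of these 21. It had 1010, 1003 and 2149 counts in control replicates 1, 2 and 3, or 32.8, 43.4 and 93.9 CPM after scaling by the trimmed mean of M-values (TMM), and 0 counts in each SFN library. The control mean was 56.7 ± 32.7 CPM (SD, n = 3). Pooled over the group, the control level was at least 1249-fold above a floor of 3 counts over the SFN libraries. The fitted log2 fold change was -13.51 (standard error 2.62, adjusted p = 0.0261 by the edgeR QL test), a value that depends on how the model treats zeros. It was 0.892 CPM in TSA replicate 1 and 0 in the other TSA libraries.

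In some very abundant genes that were lower under SFN, control replicate 1 was close to the SFN libraries. In others, such as HF086_012939 described below, it lay far above them. Of the 15 most abundant tested genes, 5 had less than 10% of the level of either other control in control replicate 1. These 5 genes took up 17.3% and 13.3% of all counts in control replicates 2 and 3, but 0.0498% in control replicate 1 and 0.0189% to 0.0541% in the SFN libraries. Their fitted log2 fold changes were -7.59 to -9.55, and 2 of the 5 were called. In these 2, control replicate 1 lay just above all SFN libraries, and in the others it lay within their range. Over all tested genes, 132 were this low in control replicate 1, and 65 of them were called as falls, 2 as rises. All 69 called falls in which the groups overlapped had control replicate 1 within or below the range of the SFN libraries, with control replicates 2 and 3 above it. Without control replicate 1, 685 of the 687 falls were still called, against 60 without control replicate 2 and 17 without control replicate 3. Control replicate 1 was the control nearest to the SFN libraries, so leaving it out favours these calls and does not test them.

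HF086_012939 was the most abundant gene that fell with no overlap of the groups, at rank 3 by mean level. It was at 12700, 68410 and 43450 CPM in control replicates 1, 2 and 3, and at 66.8, 122.2 and 80.7 CPM in SFN replicates 1, 2 and 3. All SFN libraries were thus far below the lowest control. The means were 41524 ± 27907 CPM (SD, n = 3) in controls and 89.9 ± 28.8 CPM (SD, n = 3) under SFN, with a log2 fold change of -8.85 (standard error 2.17, adjusted p = 0.0305 by the edgeR QL test). It was 124.4, 2365 and 3.92 CPM in the TSA libraries, which spread far more widely than the SFN libraries.

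The 2 most abundant tested genes were not called. The first was at 116600, 142100 and 98660 CPM in the controls and at 29820, 698 and 57770 CPM under SFN (log2 fold change -2.02, adjusted p = 0.234 by the edgeR QL test). The second was at 58500, 75780 and 63570 CPM in the controls and at 10520, 283 and 32350 CPM under SFN (log2 fold change -2.20, adjusted p = 0.277 by the same edgeR test). Every SFN library lay below every control for each of them, but SFN replicate 2 was far below the other SFN libraries. Together they held 12.4% to 15.4% of the counts in the controls and 5.16%, 0.115% and 9.73% in SFN replicates 1, 2 and 3.

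The share of counts held by abundant genes was lower under SFN. The 10 most abundant genes of each library held 32.0% ± 6.33 of its counts in controls (SD, n = 3) and 15.1% ± 4.15 under SFN (SD, n = 3), with every SFN library below every control (two-sided exact permutation test, p = 0.1, the smallest p that 3 against 3 libraries allow). The 100 most abundant genes held 55.0% ± 4.20 and 41.2% ± 3.42 (SD, n = 3 each; exact permutation test, p = 0.1). The number of genes detected at the depth of the shallowest library was 12409 ± 156 in controls and 12594 ± 674 under SFN (SD, n = 3 each; exact permutation test, p = 0.7), a difference smaller than the spread between libraries.

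The 177 genes that fell by 2 to 4 log2 units and the 159 that fell by less each had counts in all 6 libraries. The former had a median of 37.4, 118.4 and 106.7 CPM in control replicates 1, 2 and 3 and 13.4 to 15.8 CPM in the SFN libraries. The latter had 45.2, 88.8 and 80.3 CPM and 22.5 to 27.4 CPM. In each class control replicate 1 was the lowest control and lay between the other controls and the SFN libraries. All 177 and 157 of the 159 were called without control replicate 1, whereas 31 and 10 were called without SFN replicate 2, 11 and 0 without control replicate 2, 3 and 0 without control replicate 3, and none without SFN replicate 1 or 3. The median log2 fold changes moved less: without each library in turn they were -3.07 to -2.39 (-2.69 with all libraries) and -1.70 to -1.30 (-1.49 with all libraries).

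Most genes that rose had counts in the controls and rose by under 4 log2 units. Over all 516, the median level was 18.3, 8.07 and 9.31 CPM in control replicates 1, 2 and 3. The 286 genes that rose by under 2 log2 units had a median of 25.9, 13.8 and 17.0 CPM in control replicates 1, 2 and 3 and of 45.1, 56.3 and 49.5 CPM in SFN replicates 1, 2 and 3. The 177 genes that rose by 2 to 4 units had 12.7, 4.50 and 4.94 CPM in the controls and 37.8, 56.7 and 33.0 CPM under SFN. As for the falls, control replicate 1 was the control nearest to the SFN libraries. The share of the counts held by all 516 genes that rose was 2.35%, 0.871% and 1.10% in the controls and 7.37%, 10.8% and 6.07% under SFN. Of the 516, 503 were called without control replicate 1, 32 without SFN replicate 2, 1 without control replicate 2, 36 with the replicate block, and none without control replicate 3, SFN replicate 1 or SFN replicate 3. Their median log2 fold change was 1.58 to 2.28 without each library in turn, and 1.86 and 1.92 without SFN replicate 1 and SFN replicate 3.

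**Figure D4:**
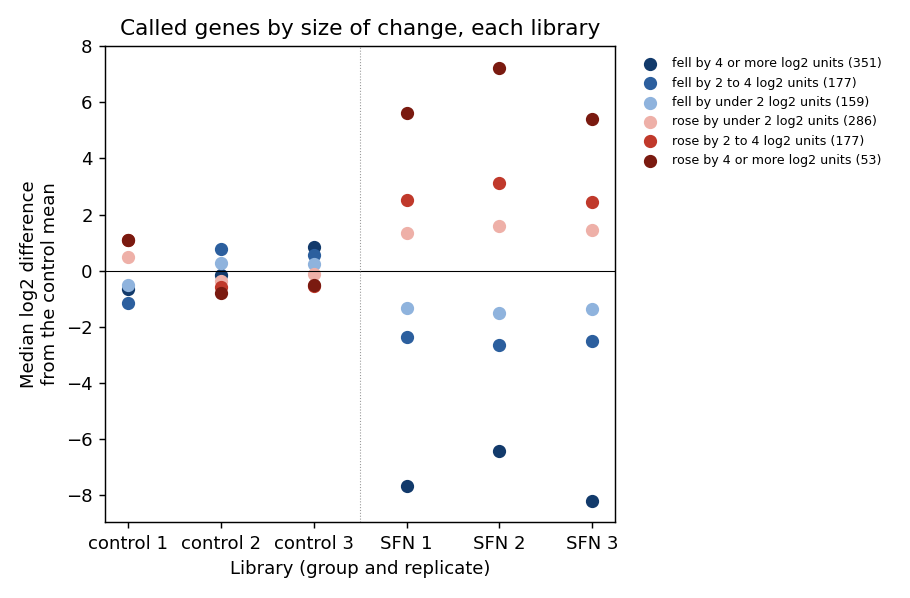
For each of the 6 libraries, points give the median log2 difference from the mean of the controls over the called genes, grouped by the size and direction of their fitted change, with the number of genes in brackets. In every class control replicate 1 is the control nearest to the SFN libraries, and SFN replicate 2 is the highest of the SFN libraries for the 53 genes that rose by 4 log2 units or more.

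The 53 genes that rose by 4 log2 units or more came from very low control levels, and SFN replicate 2 was the highest library in their sum. Their median over genes of the mean level was 0.976 CPM in controls and 51.0 CPM under SFN, and 27 of them averaged under 1 CPM in controls. Summed over the 53 genes, the level was 319, 53.6 and 87.2 CPM in the controls and 4613, 18833 and 3889 CPM in SFN replicates 1, 2 and 3. In 26 of the 53 (49.1%), SFN replicate 2 was more than 4 times above each other SFN library, as compared to 5.47% of all tested genes. The 53 genes were chosen by their rise, and a gene almost absent from the controls could pass the filter only through the SFN libraries. This choice can favour low control levels and a high SFN replicate 2, so these levels and shares are not a test. The other SFN libraries also lay above the controls. That held for every gene that rose, so it is not a separate test. The median ratio to the control mean over the 52 genes with any control count was 35.9 for SFN replicates 1 and 3 and 99.5 for SFN replicate 2. Of the 53, 36 stayed at 4 or above without each library in turn, 48 were called without control replicate 1, 8 without SFN replicate 2, 9 with the replicate block and none without any 1 of control replicate 2, control replicate 3, SFN replicate 1 or SFN replicate 3.

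HF086_012513 had the largest rise with no overlap of the groups. It had 0 counts in every control and 152, 911 and 176 counts in SFN replicates 1, 2 and 3, which are 4.75, 121.8 and 5.93 CPM. SFN replicate 2, the library of lowest depth, was thus above the other SFN libraries in counts as well as in CPM. Pooled over the group, the SFN level was at least 459-fold above a floor of 3 counts over the controls, and at least 136-fold without SFN replicate 2. The fitted log2 fold change was 13.14 (standard error 2.82, adjusted p = 0.0303 by the edgeR QL test), and 10.19 without SFN replicate 2 (adjusted p = 0.0562 by the same edgeR test). It was the only tested gene without a count in any control. It was not called in the model of the 6 libraries alone (adjusted p = 0.0689 by edgeR). The Wald test of DESeq2 gave it no adjusted p and so did not call it.

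HF086_011481 was the most abundant gene that rose, and 1 of only 4 that rose above a mean of 1000 CPM. It was at 5023, 2402 and 1699 CPM in control replicates 1, 2 and 3, and at 8658, 14500 and 6717 CPM in SFN replicates 1, 2 and 3. The highest control and the lowest SFN library were the closest pair across the groups. The means were 3041 ± 1752 CPM (SD, n = 3) and 9958 ± 4051 CPM (SD, n = 3), with a log2 fold change of 1.71 (standard error 0.49, adjusted p = 0.0425 by the edgeR QL test). It was no longer called with upper-quartile scaling, with any of the 3 other filters on low values, in the 6 libraries alone, or without any 1 of the TSA libraries (adjusted p from 0.0554 to 0.110 by edgeR).

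**Figure D5:**
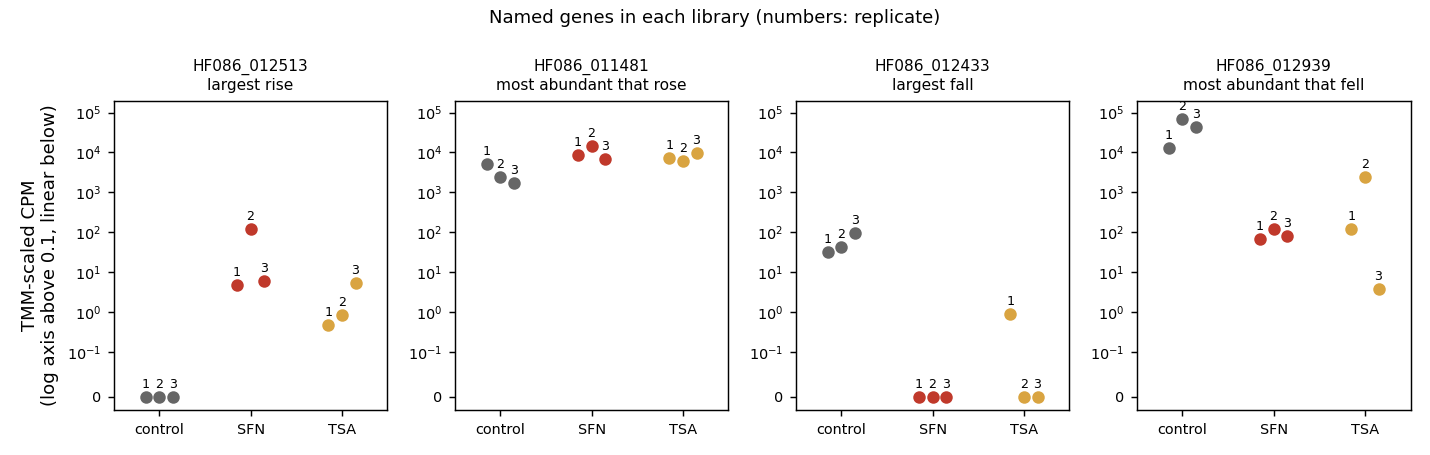
TMM-scaled CPM of the 4 named genes in every *S*. *exigua* library by treatment, with the replicate number beside each point, on an axis that is logarithmic above 0.1 and linear below. For each gene the 3 SFN libraries lie on one side of the 3 controls. HF086_012513 is at 0 in all controls and HF086_012433 at 0 in all SFN libraries.

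Without each library in turn, the fitted log2 fold changes of the 4 named genes were 10.19 to 13.63 for HF086_012513, 1.27 to 2.28 for HF086_011481, -13.75 to -12.95 for HF086_012433 and -9.28 to -8.29 for HF086_012939. None of the 4 was called by the edgeR QL test without any 1 of control replicate 2, control replicate 3 or the 3 SFN libraries. With the replicate block their adjusted p from edgeR was 0.0588, 0.0845, 0.0583 and 0.0553, in the same order. With the block in the 6 libraries alone it was 0.0456, 0.185, 0.0438 and 0.0350 by edgeR, so that all but HF086_011481 were called.

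Falls were about as frequent at every level of expression, and the median fall was deepest in the class of lowest mean level. Between a mean of 10 and 30 CPM, 349 of 2664 genes fell (13.1%, median log2 fold change -6.46) and 225 rose (8.45%, median 2.02). Of these 349, 231 fell by 4 log2 units or more. A gene near 0 under SFN could pass the filter only through its controls, so this depth is not independent of the filter. Between 30 and 100 CPM, 201 of 1790 fell (11.2%, median -2.92) and 196 rose (10.9%, median 1.77). Between 100 and 1000 CPM, 117 of 1052 fell (11.1%, median -2.84) and 91 rose (8.65%, median 1.64). Above 1000 CPM, 20 of 184 fell (10.9%, median -2.61) and 4 rose (2.17%, median 1.77). These shares stand beside 12.1% and 9.07% over all tested genes. As above, they hold for the model of all 9 libraries, and no gene of any level was called without SFN replicate 1 or 3.

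To place control replicate 1 on genes whose calls did not use it, the model was fitted without it. The library was then located on the genes called. The filter and the scaling of the levels still included it. On the 1180 genes that rose without control replicate 1, this library lay a median of 63.5% of the way from the mean of control replicates 2 and 3 to the mean of the SFN libraries, and on the 1153 that fell 59.7% of the way. It was nearer to SFN than to the other controls in 843 (71.4%) and 653 (56.6%) of these genes. On the genes called without it, control replicate 2 lay at 4.87% on 60 falls and at -8.53% on 1 rise. In the same way, control replicate 3 lay at -21.3% on 17 falls. SFN replicate 2 lay 12.4% of the way to the controls on 35 rises and 21.05% on 187 falls. These sets of genes differ, and the position of another held-out control on the 1180 and 1153 genes was not computed.

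Called genes often carried locus tags that followed each other in number. Among tested genes whose next number was also tested (2466 pairs), the next gene fell in 66 of 301 cases where the first had fallen (21.9%), as compared to 10.7% of all pairs. It rose in 43 of 223 cases where the first had risen (19.3%), as compared to 9.37% of all pairs. The longest runs held 4 genes in each direction. The run that rose did so by 5.32 to 7.04 log2 units, from a summed mean of 41.5 CPM in controls to 1936 CPM under SFN. Whether the numbers follow the order of genes along the genome is not given in the sources used here, and related neighbouring genes can share reads, so that their counts may not be independent.

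The TSA libraries are compared with the same controls, so the values of each treatment are only set side by side. Over the 687 genes that fell under SFN, the median log2 fold change was -4.11 for SFN and -3.87 for TSA. Over the 516 that rose, it was 1.87 for SFN and 1.68 for TSA. The 53 genes that rose by 4 log2 units or more, chosen on the SFN libraries, had a median of 6.45 for SFN and 2.86 for TSA. The SFN libraries were also compared directly with the TSA libraries by the edgeR QL test. After adjustment over all tested genes, 0 of the 1203 called genes passed, and 0 of the 4487 genes not called. This count is thus not particular to the called genes. An unadjusted p under 0.05 was found for 23 of the 687 falls and 46 of the 516 rises. The same held for 132 of the 4487 genes not called. Among the 46 rises were 32 of the 53, which were chosen for their high SFN values, so this does not test them.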

How the data were processed

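RNA was selected by poly(A), and the submitters' processing notes name Trimmomatic 0.39, HISAT2 2.2.1 and featureCounts. The authors used the TB_SE_WUR_2020 genome for *S*. *exigua*, and their deposited values are raw counts per gene without normalization. Whether counting used strand is not given in the sources used here. A total of 0 columns belonged to no mapped sample. The deposited normalized table and the tables of *T*. *ni* were not used here.

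The deposited counts were fitted with edgeR 4.0.16 under R 4.3.3. A gene was tested if its CPM averaged over 10 in the 6 control and SFN libraries, library sizes were summed over these genes, and libraries were scaled by TMM. One model of treatment was fitted to all 9 *S*. *exigua* libraries, and SFN was compared with control by the edgeR quasi-likelihood (QL) test, with p-values adjusted by Benjamini-Hochberg over all tested genes and a threshold of 0.05. Printed CPM are TMM-scaled, except for the filter, the classes by mean level and the counts that equal 10 CPM. These used library size alone. Log2 CPM used a prior count of 2. The study speaks of pairing its triplicates without giving model terms. No label ties equal replicate numbers to shared larvae or days, so the replicate block was an alternative. The genes, groups, tests and the model without the block were chosen with earlier results of these data known. Named genes are, per direction, the largest change and the most abundant gene among called genes whose groups did not overlap. Alternatives were other scalings, filters and thresholds, the likelihood ratio test, DESeq2 1.42.0, thinned counts, 6 libraries only, and each library left out. The pools are separate samples, and nothing further on their origin is given, so that p-values measure the spread between these pools only. Intervals of depth cover counting error only. Figures were drawn with matplotlib 3.10.9.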

Additional observations from a re-analysis of the deposited data

How the results depend on the processing

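The number of called genes (1203) depended on the test, the filter and above all on the libraries. It was 2042 with DESeq2's Wald test, 1914 with a mean CPM over 1, 449 with the 6 libraries only, and 0 at an adjusted p under 0.01 (edgeR QL test, where 2240 genes had an unadjusted p under 0.05). It ranged from 0 to 2333 with 1 library left out and was 2475 without control replicate 1 and SFN replicate 2, an alternative chosen after seeing the data. With the replicate block it was 190, and 268 with the block in the 6 libraries only. Deviations of same-numbered control and SFN libraries from their group means had correlations of 0.034, 0.088 and -0.053. Those of differently numbered libraries had -0.080 to 0.078. With 3 libraries per group, 1 of which stood apart, these values cannot decide whether equal numbers share a batch.

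The percent of called genes that fell (57.1%) was 53.0% in the edgeR likelihood ratio test, 63.2% under DESeq2 size factors, 72.5% with a mean CPM over 1, 80.2% with no filter, 84.4% with the 6 libraries only, 76.8% with the replicate block and 89.2% with the block in the 6 libraries only. It ranged from 49.4% to 100% with 1 library left out. More genes rose than fell under scaling by library size alone (28.9% fell), without control replicate 1 (49.4%), and without control replicate 1 and SFN replicate 2 (49.3%). The cause was not tested.

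The median log2 fold change of all tested genes (0.06) was 0.68 with library size only, 0.15 with upper-quartile factors, 0.0829 with no filter, 0.0478 with the replicate block, 0.0317 with the filter across 9 libraries, 0.0126 with a mean CPM over 1, 0.00873 with the 6 libraries only, -0.0165 with these and the block, -0.0308 with DESeq2 size factors, -0.0333 with the DESeq2 Wald test and 0.0264 without control replicate 1 and SFN replicate 2. With 1 library left out it ranged from -0.0900 to 0.116. The median absolute change (0.84) was 1.06 with library size only, 1.15 with no filter, 1.06 without control replicate 1 and SFN replicate 2, and 0.74 to 1.09 with 1 library left out. Genes whose groups did not overlap (2270) numbered 3960 with a mean CPM over 1, 4767 with no filter, where more genes were tested, and 2270 to 3705 with 1 library left out. The SFN minus control difference in the share of the 10 most abundant genes stayed between -19.8 and -13.5 percentage points. The median absolute difference of an SFN library from the control mean in log2 CPM, averaged over the SFN libraries, was 0.94 with a prior count of 0.5 and 0.93 with 2.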
